A study of Mus musculus with 18 samples.

Results

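The 10 genes described here were chosen as liver genes linked to growth hormone and its signal transducer STAT5, and dependence on either was not measured. Stat5a and Stat5b encode STAT5 itself, and Bcl6 encodes a repressor. All 10 genes were followed through liver regrowth: Hsd3b5, Elovl3, Selenbp2, Serpina12, Nudt7, Cyp4a12a, Cyp4a12b, Stat5a, Stat5b and Bcl6. They were taken by gene symbol from the deposited count tables, and all 10 were found among the 17180 genes listed. The Mup genes, which respond to the same hormone, were left out by the same rule; their near-identical copies share reads. The RNA came from liver of C57BL/6 mice, removed 0.5, 2, 4, 24, 48, 72, 120 or 168 h after removal of 2/3 of the liver (partial hepatectomy), and from mice given a sham operation. Each of the 9 groups had 2 libraries, made from RNA of 3 mice combined. Groups therefore have n = 2 pools, and the p-values rest on how far such pools differ, not single mice. The labels give neither the sex and age of the mice nor the hour at which the sham livers were taken, and RNA was prepared from frozen liver with no sorting of cells named, so all its cell types can contribute.

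The pituitary of male rodents releases growth hormone in separate pulses, while that of females releases it more evenly. In hepatocytes the hormone binds its receptor GHR, the attached kinase JAK2 phosphorylates STAT5, and STAT5B, the main form in liver, enters the nucleus with each pulse and activates genes of the male liver. BCL6 is a repressor that is more abundant in male liver and can occupy the same DNA sites as STAT5. Of the 10 genes, 7 make hepatocyte enzymes or a secreted protein, and the remaining 3 make transcription factors of the pathway.

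Levels below are counts per 1000000 reads (CPM) after TMM scaling, which scales libraries by a trimmed mean of the log2 changes between them. Changes are given on the log2 scale with the SE of edgeR's quasi-likelihood test on the counts, and a gene was called changed at a Benjamini-Hochberg adjusted p under 0.05. Library totals, in units of 1000000 reads, were 7.78 to 9.16. In 16 libraries the table was complete, so an unlisted gene had 0 reads. The table of sham replicate 2 ended at 52 reads per gene and that of 0.5 h replicate 1 at 157, so a gene unlisted there is unknown below that count. Of the 10 genes, 9 were listed in all 18 libraries and were tested there among 4906 genes. Stat5a was unlisted in 0.5 h replicate 1, which places it at or below 19.1 CPM, and was tested in the other 17 libraries among 8026 genes. By library totals alone the median gene moved against sham by -0.17 at 2 h and -0.37 at 4 h, while at 24 h and 48 h it moved by 0.11 and 0.15. It moved by -0.12 from 24 h to 168 h and by -0.17 from 48 h to 168 h, and no called gene of the 10 changed direction under that scaling.

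The 7 enzyme and secretory genes lay lowest between 4 h and 48 h and both their pools were below both sham pools at 168 h, as were those of 32.6% of all genes tested, a count with no test. Stat5b fell by at most 0.83 on the log2 scale, Stat5a overlapped sham from 2 h on, and Bcl6 varied widely between pools. At 4 h, 7 of the 10 genes passed the test and all 7 were lower, where 18.8% of all genes tested were lower. At 24 h, 6 of 10 were lower, where 9.46% of all genes tested were lower. At 48 h, 8 of 10 were lower against 18.9% of all genes, and at 72 h, 5 of 10 against 6.42%. The median log2 change of the 10 genes was -1.21 at 4 h and -1.11 at 24 h, and for 48 h and 72 h it was -1.99 and -1.38, where the median of all genes tested lay within 0.02 of 0.

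The first and the last times gave no call among the 10 genes with edgeR's quasi-likelihood test. At 0.5 h, where 0.0408% of all genes were called lower, 0 of 10 were called, and 0 had an unadjusted p under 0.05. At 2 h, where 4.16% were called lower, the counts were again 0 called and 0 at an unadjusted p under 0.05. At 120 h 0.387% of all genes were called lower, and at 168 h 3.34% were. At the looser threshold of an unadjusted p under 0.05, 5 of the 10 were lower at 120 h and 3 at 168 h, with 0 higher. The share of all genes at that looser threshold was not counted, so these 2 counts have no background. DESeq2 called 0 of 10 at the first 2 times, 1 at 120 h and 2 at 168 h, and limma-trend on log2(RPKM + 1) called 0, 0, 1 and 0. Both pools lay below both sham pools for 7 of 10 genes at 120 h, where 28.4% of all genes tested did so, and for 8 of 10 at 168 h, where 32.6% did. The median log2 change of the 10 was -0.84 and -0.86. Over the 80 changes against sham, 26 were called lower and 0 higher, and 0 of the rises had an unadjusted p under 0.05 or a call by DESeq2 or limma-trend.

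**Figure D1:**
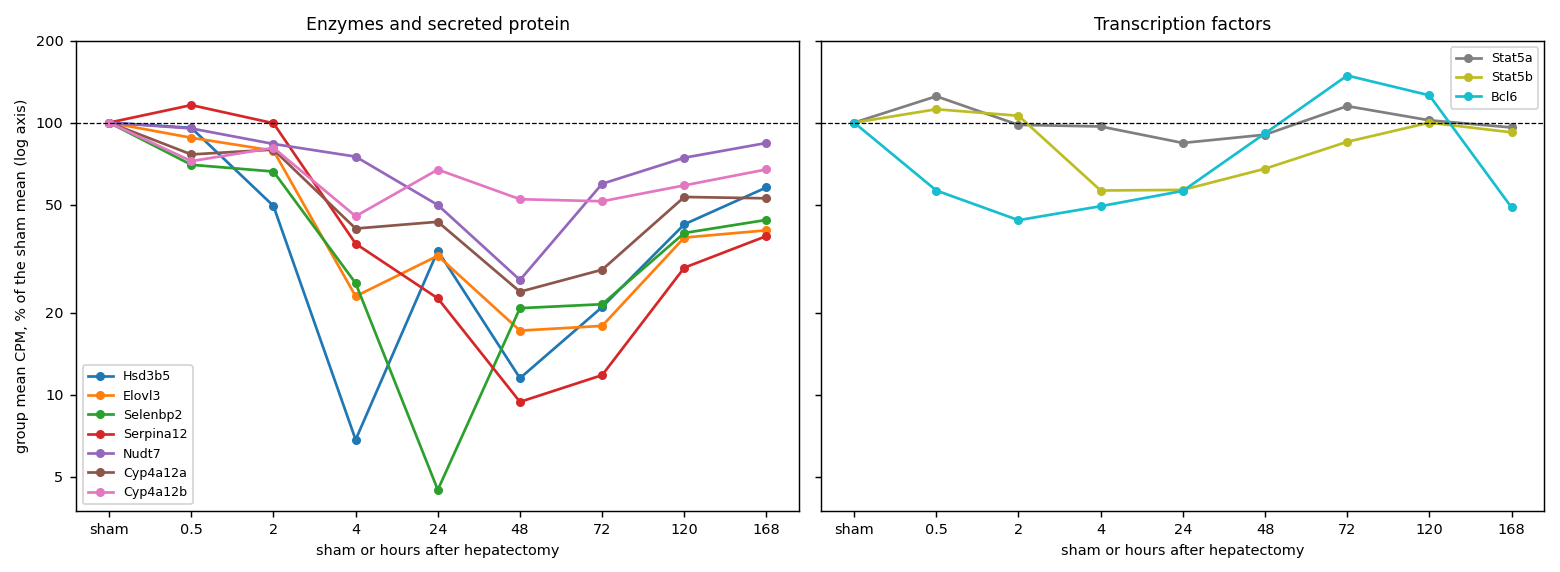
Group mean CPM of each gene as a percentage of its sham mean (log axis), over sham and the hours after hepatectomy, with the enzymes and the secreted protein on the left and the transcription factors on the right. Hsd3b5 dips to 6.83% at 4 h and 11.5% at 48 h, Selenbp2 to 4.47% at 24 h, and Stat5a stays between 84.2% and 125%.

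Hsd3b5 encodes a steroid-reducing member of the 3-beta-hydroxysteroid dehydrogenase family that is a classic marker of male mouse liver. It lies on the minus strand of chromosome 3 (chr3:98618636-98645534, GRCm38.p6). Its 300-base promoter window in RefSeq, from 250 bases before to 50 bases after the start, holds no match to TTCNNNGAA, the canonical STAT motif. It holds 1 match to TTCNNNNGAA, a form with a longer spacer. The stretch around it is shown because this gene had the deepest early fall, and capitals mark the match, which lies upstream of the gene and begins 203 bases before the start at chr3:98645728-98645737:
Hsd3b5, chr3:98645713-98645752, minus strand, GRCm38.p6: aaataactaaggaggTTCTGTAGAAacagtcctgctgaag
Matches to TTCNNNNGAA on either strand are the same letters, since the motif reads alike on both. Of the 32851 promoter windows of this length, 6.95% hold it, so the match is a description and not a binding site.

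In the sham pools Hsd3b5 stood at 259 and 204 CPM, and at 0.5 h at 207 and 237. It stood at 116 and 113 CPM at 2 h, at 15.9 and 15.8 at 4 h, at 99.1 and 57.3 at 24 h, and at 28.0 and 25.3 at 48 h. At 72 h the pools held 78.6 and 18.8 CPM, at 120 h 143 and 53.6, and at 168 h 153 and 114. From 2 h on, every pool was below both sham pools, and the course had 2 low points, at 4 h and at 48 h, with higher pools at 24 h between them. At 4 h it fell by 3.87 ± 0.58 on the log2 scale (adjusted p = 0.000218), from 2071 and 1631 reads in sham to 98 in each pool at 4 h. The change was -3.12 ± 0.54 at 48 h (adjusted p = 0.00105) and -2.25 ± 0.52 at 72 h (adjusted p = 0.0135).

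The 24 h value of Hsd3b5, -1.57 ± 0.51, passed with an adjusted p of 0.0485 and kept its call only when 1 of the 72 h or 120 h libraries was left out. Without any 1 of the other 14 libraries its adjusted p ran from 0.0539 to 0.231. The call at 72 h was lost without sham replicate 1 (-2.07, adjusted p = 0.0795) and without 72 h replicate 2 (-1.54, adjusted p = 0.102), and the change grew to -3.63 without 72 h replicate 1. Ordered by mean, the levels ran sham, 0.5, 168, 2, 120, 24, 72, 48 and 4 h, and 6 of the 8 neighbours in that order overlapped between pools. The 2 separate steps were from 0.5 h to 168 h and from 48 h to 4 h.

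**Figure D2:**
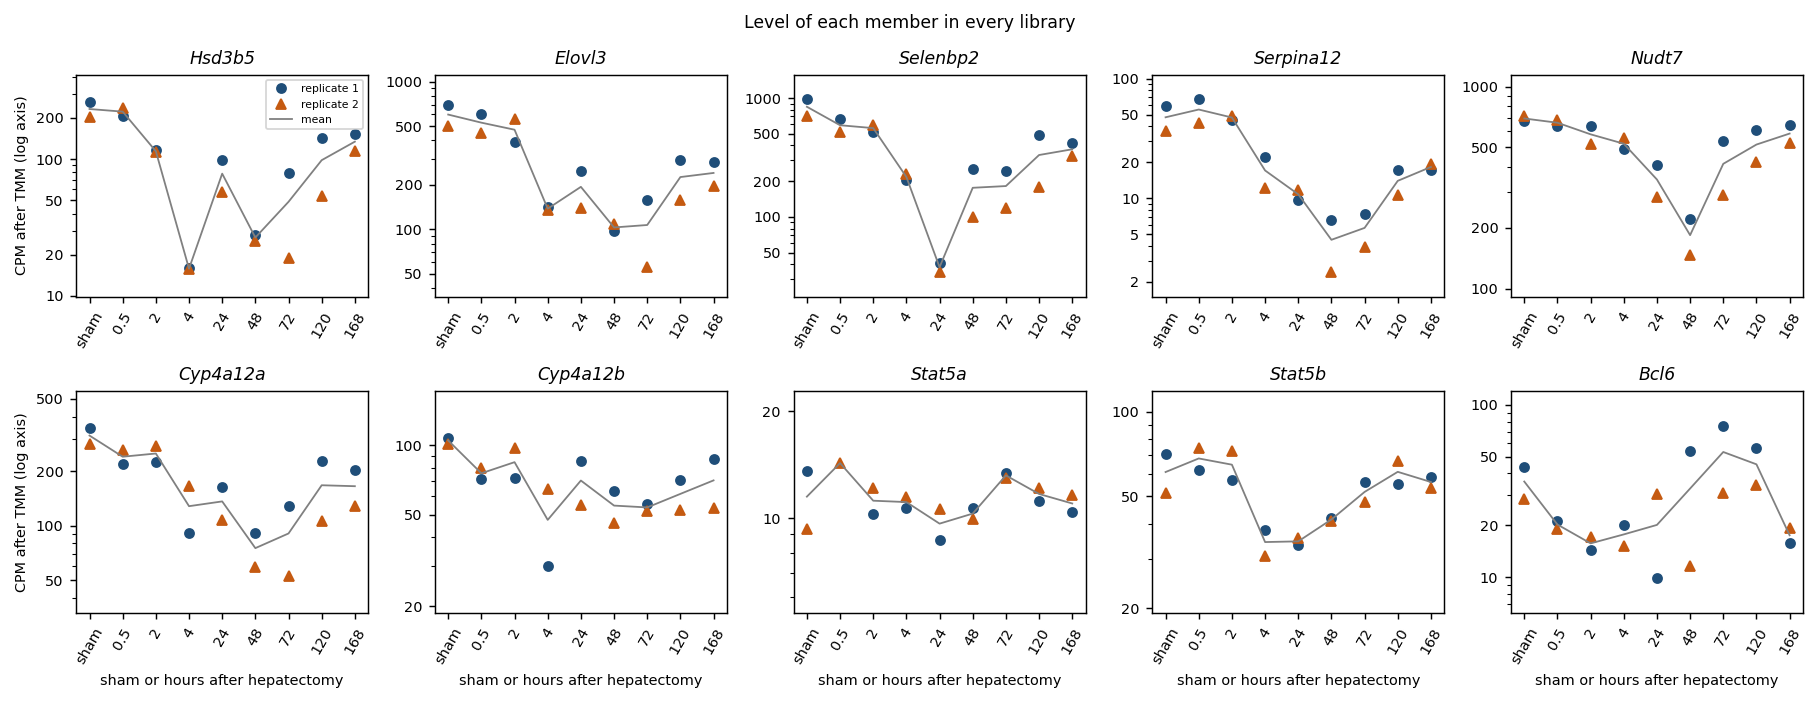
CPM after TMM scaling (log axis, a separate range in each panel) of the 10 genes in every library, by group; circles are replicate 1, triangles replicate 2, and the grey line joins group means. Hsd3b5 has both 4 h pools at 15.8 to 15.9 CPM, and Selenbp2 has both 24 h pools at 34.2 to 41.4 CPM.

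Elovl3, the elongase of very long chain fatty acids, lies on the plus strand of chromosome 19 (chr19:46131897-46135694). One of its exons overlaps an exon of Pitx3 on the opposite strand, and since no source used here gives the strand of counting, reads of the pair cannot be told apart. Its level was 699 and 499 CPM in sham, 603 and 452 at 0.5 h, 389 and 557 at 2 h and 141 and 135 at 4 h. It was 249 and 139 CPM at 24 h, 97.5 and 109 at 48 h, 158 and 56.0 at 72 h, 295 and 158 at 120 h and 284 and 198 at 168 h. The pools of 0.5 h and 2 h overlapped sham, and from 4 h on all lay below it. The log2 change was -2.12 ± 0.44 at 4 h (adjusted p = 0.00213), -1.63 ± 0.43 at 24 h (adjusted p = 0.0193), -2.54 ± 0.44 at 48 h (adjusted p = 0.00105) and -2.49 ± 0.44 at 72 h (adjusted p = 0.00386). The call at 24 h was lost without sham replicate 1 (-1.36, adjusted p = 0.121) and without 24 h replicate 2 (-1.28, adjusted p = 0.137), and the 72 h value was -3.42 without 72 h replicate 1. At 168 h the mean was 40.2% of sham, with a log2 change of -1.32 ± 0.43 that did not pass (adjusted p = 0.0743), though DESeq2 called it lower (adjusted p = 0.0456), as did the fit of only sham and 168 h (adjusted p = 0.0076). In the order of means, 7 of 8 neighbours overlapped, and 2 h lay apart above 168 h.

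Selenbp2, a selenium-binding protein of the liver cytosol that is higher in males, lies on the plus strand of chromosome 3 (chr3:94693573-94704406). It had the largest range of the 10 genes. Its level was 986 and 703 CPM in sham, 664 and 518 at 0.5 h, 520 and 597 at 2 h and 204 and 231 at 4 h. At 24 h it was 41.4 and 34.2 CPM, followed by 252 and 99.1 at 48 h, 244 and 119 at 72 h, 485 and 180 at 120 h and 419 and 323 at 168 h. All 16 pools after hepatectomy were below both sham pools, and the 24 h pools were below all others. The highest group mean was 22.4 times the lowest. Its log2 change was -1.96 ± 0.47 at 4 h (adjusted p = 0.00573) and -4.48 ± 0.53 at 24 h (adjusted p = 0.000231). At 48 h it was -2.26 ± 0.48 (adjusted p = 0.00321), or -3.11 without 48 h replicate 1, and at 72 h -2.22 ± 0.47 (adjusted p = 0.00931), or -2.82 without 72 h replicate 1. The 72 h call was lost without sham replicate 1 (-1.95, adjusted p = 0.0665) and without 72 h replicate 2 (-1.77, adjusted p = 0.131). Between 24 h and 168 h the level rose by 3.30 ± 0.50 on the log2 scale (adjusted p = 0.000851).

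At 24 h the summed level of 10 hepatocyte markers, among them albumin and transthyretin, was 88437 and 74945 CPM against 120487 and 126956 in sham. Albumin made up most of that sum, at 60535 and 49218 CPM against 90272 and 91388 in sham. Cps1, another of the markers, was 4783 and 4243 CPM against 3706 and 3823. Of the 10 markers, 4 were called lower and 0 higher. In whole liver, fewer hepatocytes and less RNA of these genes per hepatocyte cannot be told apart. At 4 h the same sum was 141234 and 152509 CPM and at 48 h 115422 and 118221, and the part of this shift in the results for the 10 genes was not tested.

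Serpina12, the secreted serpin known as vaspin, lies on the minus strand of chromosome 12 (chr12:104028769-104044443). It was listed at 58.9 and 36.6 CPM in sham, 68.0 and 42.8 at 0.5 h, 45.7 and 49.3 at 2 h and 22.2 and 12.1 at 4 h. It then stood at 9.71 and 11.8 CPM at 24 h, 6.59 and 2.40 at 48 h, 7.43 and 3.88 at 72 h, 17.4 and 10.6 at 120 h and 17.3 and 19.3 at 168 h. The first 2 times overlapped sham, and all later pools lay below it. The low points rest on few reads, 67 and 24 at 48 h and 69 and 37 at 72 h, so these levels are less precise than those at higher counts. Its log2 change was -1.48 ± 0.40 at 4 h (adjusted p = 0.0107), -2.15 ± 0.40 at 24 h (adjusted p = 0.00347), -3.40 ± 0.44 at 48 h (adjusted p = 0.000181) and -3.08 ± 0.43 at 72 h (adjusted p = 0.000902). The call at 4 h was lost without sham replicate 1 (adjusted p = 0.105) and without 4 h replicate 2 (adjusted p = 0.103), and the 48 h value was -4.33 without 48 h replicate 1. At 120 h the change was -1.77 ± 0.39 (adjusted p = 0.0595) and at 168 h -1.38 ± 0.38 (adjusted p = 0.0502). Both late values lay just above the threshold, and DESeq2 called each lower (adjusted p = 0.0175 and 0.035). The promoter window of Serpina12 holds no match to TTCNNNGAA and 1 match to TTCNNNNGAA, 21 bases after its start.

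Nudt7, the peroxisomal diphosphatase that degrades coenzyme A, lies on the plus strand of chromosome 8 (chr8:114133574-114154731). Per length it was the most abundant of the 10 in sham, at 645 ± 13.8 RPKM (SD, n = 2), and its first called fall by edgeR was at 24 h. Its CPM was 674 and 718 in sham, 639 and 686 at 0.5 h, 640 and 521 at 2 h and 490 and 555 at 4 h. It was 410 and 283 CPM at 24 h, 222 and 146 at 48 h, 539 and 291 at 72 h, 612 and 422 at 120 h and 644 and 528 at 168 h. The 48 h pools were below all others, and the 2 h and later pools were all below sham. At 4 h its log2 change was -0.41 ± 0.28 (adjusted p = 0.272). There limma-trend on log2(RPKM + 1), which has no TMM scaling, called it lower (-0.79, adjusted p = 0.0295). By library totals alone its change at 4 h was also -0.79, where the median gene moved by -0.37. With edgeR after TMM its log2 change was -1.01 ± 0.28 at 24 h (adjusted p = 0.0267) and -1.92 ± 0.29 at 48 h (adjusted p = 0.000476). At 72 h it was -0.75 ± 0.28, which did not pass (adjusted p = 0.0969) but was called by DESeq2 (adjusted p = 0.0426) and without 72 h replicate 1 (-1.26, adjusted p = 0.0198). The 24 h call was lost without sham replicate 1 (adjusted p = 0.0913), sham replicate 2 (adjusted p = 0.111) or 24 h replicate 2 (adjusted p = 0.169). From 48 h to 168 h the level rose by 1.67 ± 0.29 (adjusted p = 0.00177).

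Cyp4a12a and Cyp4a12b encode cytochrome P450 omega-hydroxylases of fatty acids, and Cyp4a12a is the main male form in mouse. They lie near each other on the plus strand of chromosome 4, at chr4:115299046-115332815 and chr4:115411624-115439034. The coding sequences of the pair, taken from GENCODE transcripts, are 1524 bases long and differ at 23 of them, an identity of 98.5%. To make plain how little separates their reads, the 60-base coding stretch with the most differences inside an exon was picked. No other such stretch differs at more bases. It lies in exon 6 of 12 and is shown with the 4 bases that differ in capitals:
Cyp4a12a, chr4:115326628-115326687, plus strand, GRCm38: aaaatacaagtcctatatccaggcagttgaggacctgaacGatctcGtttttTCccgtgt
Cyp4a12b, chr4:115432881-115432940, plus strand, GRCm38: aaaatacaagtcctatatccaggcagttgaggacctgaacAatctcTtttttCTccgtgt
Of the 50-base stretches of the Cyp4a12a transcript, 48.9% occur unchanged in that of Cyp4a12b, and 49.4% the other way. The deposited counts are of reads mapped uniquely, and no source used here gives the read length, so the split between the pair is uncertain.

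Cyp4a12a stood at 347 and 281 CPM in sham, 219 and 260 at 0.5 h, 224 and 275 at 2 h and 91.6 and 165 at 4 h. It was 164 and 107 CPM at 24 h, 91.4 and 58.9 at 48 h, 128 and 52.8 at 72 h, 228 and 106 at 120 h and 202 and 129 at 168 h. All 16 pools after hepatectomy lay below both sham pools, for this gene and for Cyp4a12b. The log2 change of Cyp4a12a was -1.29 ± 0.44 at 4 h (adjusted p = 0.0344), -2.06 ± 0.45 at 48 h (adjusted p = 0.00383) and -1.79 ± 0.44 at 72 h (adjusted p = 0.0185). Its 24 h value of -1.21 ± 0.44 did not pass (adjusted p = 0.0716), and it passed when the fit held only sham and 24 h (-1.20, adjusted p = 0.0288). The calls at 4 h and 72 h of Cyp4a12a were lost without either sham library (adjusted p = 0.147 and 0.0657 at 4 h, 0.106 and 0.0541 at 72 h). They were also lost without 4 h replicate 1 (adjusted p = 0.228) and without 72 h replicate 2 (adjusted p = 0.194), and the 72 h value was -2.57 without 72 h replicate 1.

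Cyp4a12b was listed at 108 and 101 CPM in sham, 71.1 and 80.0 at 0.5 h, 71.8 and 97.2 at 2 h and 29.9 and 64.8 at 4 h. Later values were 85.3 and 55.3 CPM at 24 h, 63.5 and 45.9 at 48 h, 55.7 and 51.8 at 72 h, 70.6 and 52.3 at 120 h and 87.6 and 53.3 at 168 h. Its range was the smaller of the pair, with a highest group mean 2.22 times the lowest, where Cyp4a12a reached 4.18 times. Cyp4a12b fell by 1.14 ± 0.33 at 4 h (adjusted p = 0.0169) and by 0.93 ± 0.33 at 48 h (adjusted p = 0.038). Neither call held without any 1 of the 4 libraries concerned, except that at 4 h it held without 4 h replicate 2, where the change was -1.79. Where the call was lost, the adjusted p lay between 0.0504 and 0.159 at 4 h and between 0.0565 and 0.225 at 48 h.

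The RPKM ratio of Cyp4a12a to Cyp4a12b was 3.17 and 2.74 in sham and lay between 2.51 and 3.22 in the 6 libraries of 0.5, 2 and 4 h. It was 1.90 and 1.91 at 24 h, 1.42 and 1.27 at 48 h and 2.28 and 1.01 at 72 h, then 3.20 and 2.01 at 120 h and 2.28 and 2.39 at 168 h. At 4 h the ratio overlapped sham while both genes were low, and at 24, 48, 72 and 168 h it lay below both sham values in every pool. No test of this difference between the pair was run.

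Stat5b and Stat5a, the neighbouring genes of the 2 STAT5 proteins, lie on chromosome 11, on opposite strands, at chr11:100780731-100859004 and chr11:100859351-100885169. Stat5b was 70.7 and 51.6 CPM in sham, 62.2 and 74.4 at 0.5 h, 57.4 and 72.4 at 2 h, 38.0 and 30.8 at 4 h and 33.5 and 35.7 at 24 h. It was 41.9 and 40.9 CPM at 48 h, 56.2 and 47.7 at 72 h, 55.4 and 67.1 at 120 h and 58.8 and 53.7 at 168 h. The pools of 4, 24 and 48 h lay below sham without overlap, and those of the other times overlapped it. Its log2 change was -0.83 ± 0.18 at 4 h (adjusted p = 0.00306), -0.82 ± 0.18 at 24 h (adjusted p = 0.00764) and -0.56 ± 0.18 at 48 h (adjusted p = 0.0235). From 24 h to 168 h it rose by 0.70 ± 0.18 (adjusted p = 0.0146). The 24 h call was lost without sham replicate 1 (-0.58, adjusted p = 0.0962) and when the fit held only sham and 24 h (adjusted p = 0.0565). The 48 h call was lost without sham replicate 1 (adjusted p = 0.26), 48 h replicate 1 (adjusted p = 0.0773) or 48 h replicate 2 (adjusted p = 0.117), and the rise to 168 h without 24 h replicate 1 (adjusted p = 0.0984) or 168 h replicate 1 (adjusted p = 0.0825).

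Stat5a was 13.6 and 9.32 CPM in sham and 14.3 in 0.5 h replicate 2. It was 10.3 and 12.2 CPM at 2 h, 10.7 and 11.5 at 4 h, 8.65 and 10.6 at 24 h, 10.7 and 9.97 at 48 h, 13.4 and 13.0 at 72 h, 11.2 and 12.2 at 120 h and 10.4 and 11.6 at 168 h. From 2 h on, the pools of each time overlapped sham. The sham pools themselves stand at 109 and 74 reads, and Stat5a shares exon bases with Stat3 on the opposite strand. Its changes against sham lay between -0.25 ± 0.20 at 24 h and 0.32 ± 0.23 at 0.5 h, none passed, and the course test gave an adjusted p of 0.39. The RPKM ratio of Stat5b to Stat5a was 3.86 and 4.14 in sham, 2.65 and 1.97 at 4 h, 2.81 and 2.46 at 24 h, and 4.21 and 3.50 at 168 h. At 4, 24, 48 and 72 h the ratio lay below both sham values in every pool, and the difference between the pair was not tested.

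Bcl6, the repressor, lies on the minus strand of chromosome 16 (chr16:23965050-23988866) and overlaps an exon of the gene model Gm37419 on the opposite strand. RefSeq gives it more than 1 start. The window of its second start holds 3 matches to TTCNNNGAA, the canonical STAT motif, and that of its first start holds 1. The stretch with the 3 matches is shown because 11 of the 32851 windows, or 0.0335%, hold 3 or more, with the matches in capitals:
Bcl6, chr16:23981348-23981466, minus strand, GRCm38.p6: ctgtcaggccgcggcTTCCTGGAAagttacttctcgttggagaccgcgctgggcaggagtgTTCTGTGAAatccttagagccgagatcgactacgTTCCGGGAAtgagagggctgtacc
The matches begin 168, 122 and 88 bases before that start, and 8.30% of all windows hold at least 1. This stretch lies in an intron of Bcl6 in GENCODE, and neither Bcl6 window holds a match to TTCNNNNGAA. Promoter windows were found for 7 of the 10 genes, and those of Selenbp2, Nudt7, Stat5a and Stat5b held no match to either motif. For Elovl3, Cyp4a12a and Cyp4a12b no window was available.

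In the sham pools Bcl6 stood at 43.4 and 28.3 CPM. It stood at 21.3 and 19.1 CPM at 0.5 h, 14.3 and 17.1 at 2 h, 20.2 and 15.2 at 4 h and 9.92 and 30.3 at 24 h. The later pools held 53.9 and 11.6 CPM at 48 h, 75.6 and 30.9 at 72 h, 56.0 and 34.4 at 120 h and 15.7 and 19.3 at 168 h. Both pools were below sham at 0.5, 2, 4 and 168 h, while those of 24, 48, 72 and 120 h overlapped sham and lay far from each other. No change of Bcl6 passed the test, with log2 values from -1.19 ± 0.64 at 2 h (adjusted p = 0.337) to 0.57 ± 0.59 at 72 h (adjusted p = 0.558). When each fit held sham and 1 time alone, the values at 2 h (-1.18, adjusted p = 0.00669), 4 h (-1.03, adjusted p = 0.0231) and 168 h (-1.05, adjusted p = 0.0174) passed. All 8 neighbours in its order of means overlapped, while both pools of 72 h and of 120 h lay above both pools of 2 h and of 168 h.

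**Figure D3:**
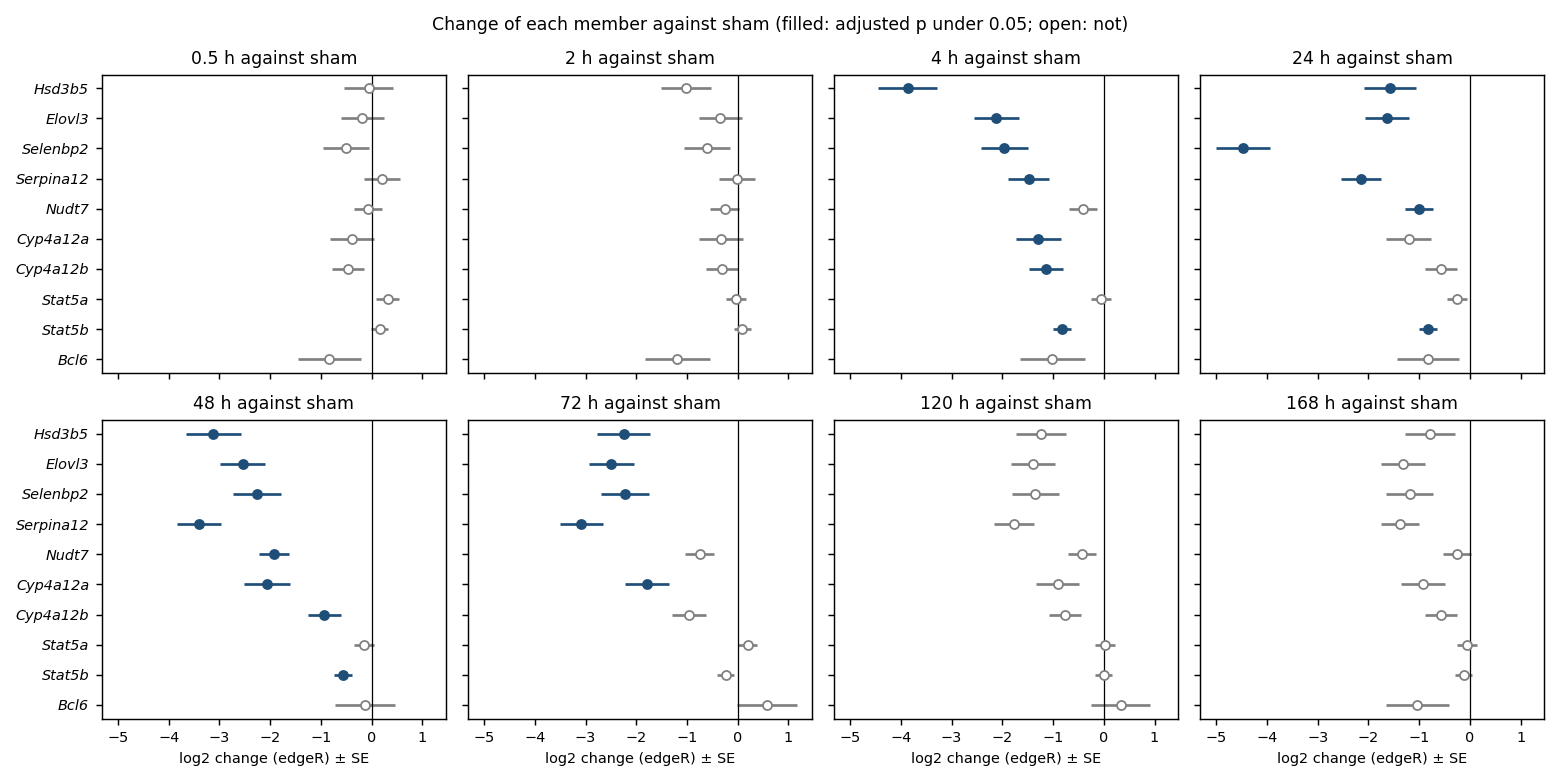
Log2 change ± SE of each gene against sham, in 1 panel per time after hepatectomy; filled points passed edgeR's quasi-likelihood test at an adjusted p under 0.05 and open points did not. All 26 filled points lie left of 0, with 7 at 4 h, 6 at 24 h, and then 8 and 5 at 48 h and 72 h.

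Over the whole course 7 of the 10 genes passed, where 68.6% of all genes tested did. The 3 that did not were Cyp4a12b (adjusted p = 0.0923), Bcl6 (adjusted p = 0.0981) and Stat5a (adjusted p = 0.39). The 168 h pools were tested against those of 24 h and 48 h. No test was run against 4 h, where Hsd3b5, Cyp4a12b and Stat5b had their lowest mean. Selenbp2 and Stat5b were higher at 168 h than at 24 h, 2 of 10 where 12.7% of all genes were higher. Hsd3b5 (2.33 ± 0.53, adjusted p = 0.00819), Serpina12 (2.02 ± 0.45, adjusted p = 0.00752) and Nudt7 were higher at 168 h than at 48 h, 3 of 10 where 11.5% were higher. The rise of Hsd3b5 was lost without either 48 h library (adjusted p = 0.0506 and 0.0731), and that of Serpina12 without 48 h replicate 2 (1.47, adjusted p = 0.0861), while it was 2.94 without 48 h replicate 1.

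Without sham replicate 1 the count of called genes was 4 in place of 7 at 4 h, 2 in place of 6 at 24 h and 2 in place of 5 at 72 h. The count was 3 at 24 h without 24 h replicate 2 and 2 at 72 h without 72 h replicate 2. It was 1 from 24 h to 168 h without 24 h replicate 1 or 168 h replicate 1. From 48 h to 168 h it was 1 when 48 h replicate 2 was left out and 5 when 72 h replicate 2 was.

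The 2 pools of a time often stood apart for these genes together. At 72 h, 10 of 10 genes were higher in replicate 1, where 47.0% of all genes were, and 5 of 10 differed by 2-fold or more between the pools, where 0.897% of all genes did. At 48 h, 9 of 10 were higher in replicate 1 and 3 were 2-fold apart, where 50.5% and 0.897% of all genes were. At 120 h the counts were 8 of 10 and 3, where 49.6% and 1.26% of all genes were. Hsd3b5 had 730 reads in 1 pool and 179 in the other at 72 h, and 1244 and 467 at 120 h. In sham, 9 of 10 were also higher in replicate 1, where 52.3% of all genes were. There 0 of 10 were 2-fold apart, where 0.387% of all genes were.

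Other genes of sex-biased liver expression stood apart in the same pools. The summed level of 14 other male-biased genes was 12123 CPM in 72 h replicate 1 and 3996 in replicate 2, and 18511 and 9467 at 120 h. Most of both gaps came from 1 gene, Serpina1e, at 9767 and 2412 CPM at 72 h and 15228 and 7057 at 120 h. It was named after its values were seen. Among the male-biased genes at 1 CPM or more, 12 of 13 were higher in replicate 1 at 72 h and 12 of 12 at 120 h, where 47.0% and 49.6% of all genes were. At 24, 48 and 168 h the counts were 10 of 14, 10 of 13 and 11 of 13, where 48.3%, 50.5% and 50.4% of all genes were. The summed female-biased genes ran the other way, at 142 and 287 CPM at 72 h and 113 and 208 at 120 h. Of those at 1 CPM or more at 72 h, 5 of 13 were higher in replicate 1 and 8 in replicate 2. Of all genes, 47.0% were higher in replicate 1 there, so the 72 h count was near that share. At 120 h the counts were 2 and 11 of 13, where 49.6% of all genes were higher in replicate 1. At 168 h they were 8 and 6 of 14, where 50.4% were, and the sums were 175 and 159 CPM. At 24 h they were 6 and 9 of 15, and at 48 h 3 and 11 of 14, where 48.3% and 50.5% were. Much of the 72 h gap came from Hamp2, at 30.0 and 100 CPM, and from Cyp2a4, at 15.1 and 56.9, a cytochrome P450 with a near-identical copy, so that its reads are uncertain; it was chosen after its values were seen. Cyp2b9, a female-biased cytochrome P450, was 3.55 CPM in 120 h replicate 1 and 28.8 in replicate 2; it was chosen after its values were seen. Summed markers of stellate cells and fibroblasts were 376 and 630 CPM at 72 h and 412 and 383 at 120 h, and those of cholangiocytes 61.8 and 128, then 67.4 and 59.4. The part of these differences in the values of the 10 genes was not tested.

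**Figure D4:**
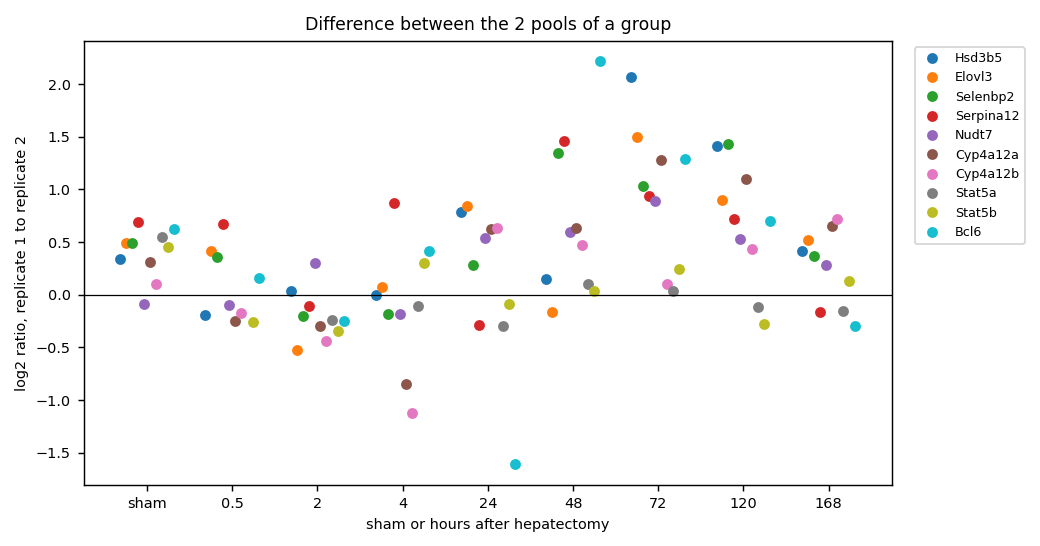
Log2 ratio of replicate 1 to replicate 2 for each of the 10 genes, by group; each colour is a gene and 0 marks equal levels. At 72 h all 10 points lie above 0, with Hsd3b5 highest, and at 48 h Bcl6 lies highest with 53.9 against 11.6 CPM.

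Receptor, kinase, feedback and target genes of the hormone did not move as 1 group. Of 20 such genes, the 17 listed in sham replicate 2 could be tested in the 17 libraries. Socs1, Socs3 and Lepr could not. Socs3 was 21.6 CPM in sham replicate 1, 169 and 275 at 2 h and 150 and 148 at 4 h. Lepr was 2.63 CPM in sham replicate 1 and 40.0 and 52.3 at 4 h, and Socs1 reached at most 0.485. The counts that follow leave these out. Of the 17, 4 were higher and 3 lower at 2 h, where 4.24% and 3.51% of all genes were. At 4 h 5 were higher and 4 lower, where 15.3% and 16.3% were. At 24 h 1 was lower and none higher (2 and 2 at an unadjusted p under 0.05), where 6.63% and 5.05% of all genes were, at 48 h 2 were higher and 5 lower against 14.2% and 17% of all genes, and at 72 h 1 was lower and none higher against 4.61% and 5.0%. At 120 h and 168 h edgeR's quasi-likelihood test called none. At an unadjusted p under 0.05, 2 were lower and 2 higher at 120 h, and 3 and 3 at 168 h. All shares of all genes here are at the adjusted threshold, and none was counted at the unadjusted one.

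Socs2, a feedback inhibitor that STAT5 induces, was 18.6 and 19.7 CPM in sham, 77.8 and 81.4 at 2 h and 106 and 118 at 4 h, so that both early times lay above all other libraries. It rose by 2.08 ± 0.47 at 2 h (adjusted p = 0.0155) and by 2.54 ± 0.47 at 4 h (adjusted p = 0.00135), when Hsd3b5 and Elovl3 were at or near their lowest. Cish, another feedback inhibitor, was 11 and 7.39 CPM in sham and 36.4 and 30.6 at 4 h, a rise of 1.86 ± 0.51 (adjusted p = 0.0149). Igfals, which encodes the subunit that stabilises IGF1 in plasma, moved the other way at 4 h. It was 111 and 119 CPM in sham and 31.7 and 41.8 at 4 h, a fall of 1.66 ± 0.22 (adjusted p = 0.000133). Ptpn1, a phosphatase that acts on JAK2, rose by 2.47 ± 0.31 at 4 h (adjusted p = 8.7e-05), and Irs1, an insulin receptor substrate, fell by 2.37 ± 0.36 (adjusted p = 0.000324).

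Ghr, the receptor gene, was 586 and 513 CPM in sham and 332 and 453 at 4 h, which did not pass. It was 215 and 177 CPM at 48 h and 306 and 266 at 72 h, below all sham, 0.5 h and 2 h libraries. It fell by 1.51 ± 0.25 at 48 h (adjusted p = 0.00111) and by 0.96 ± 0.25 at 72 h (adjusted p = 0.0289), and rose by 0.85 ± 0.25 from 48 h to 168 h (adjusted p = 0.0322). Jak2 fell by 0.68 ± 0.24 at 48 h (adjusted p = 0.0445) and Igf1 by 0.55 ± 0.20 (adjusted p = 0.0486). Igf1 stood at 466 and 404 CPM there, against 606 and 651 in sham. Cebpa, a hepatocyte transcription factor, fell by 0.83 ± 0.17 at 48 h (adjusted p = 0.00434). Cish, Jak2 and Igf1 were chosen after their values were seen. Cish, Cebpa and Irs1 share exon bases with gene models on the opposite strand.

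**Figure D5:**
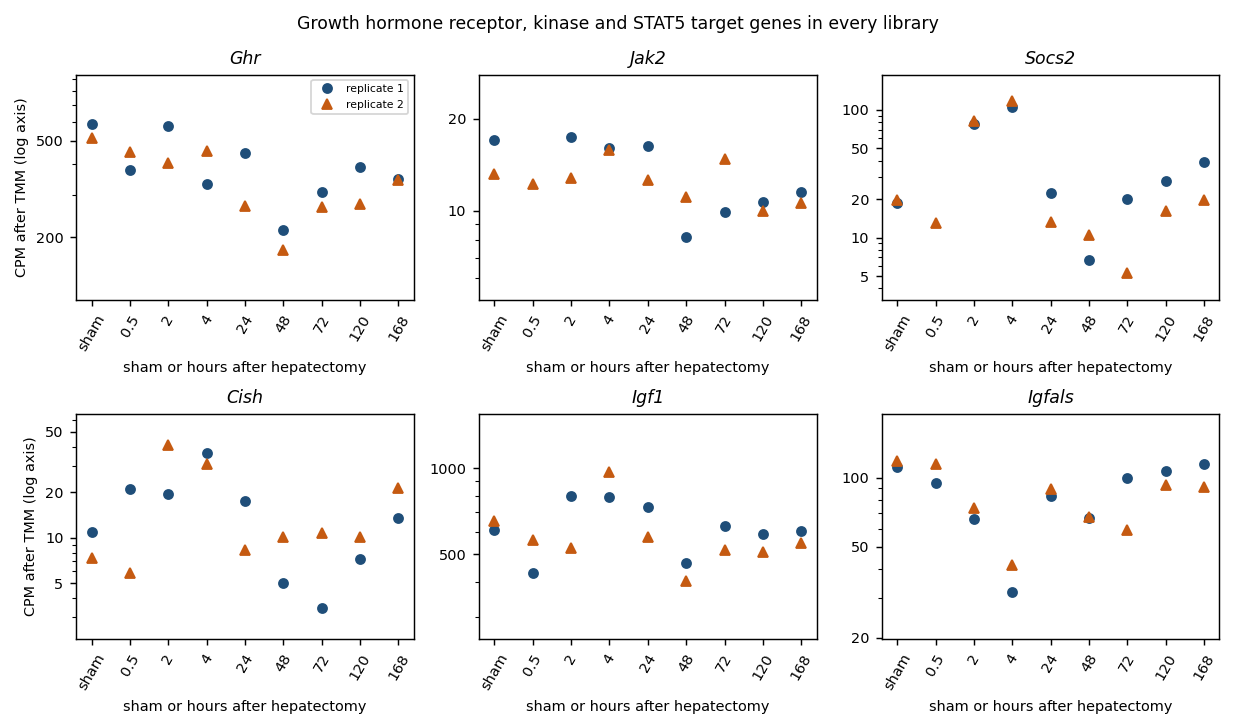
CPM after TMM scaling (log axis, a separate range in each panel) of Ghr, Jak2, Socs2, Cish, Igf1 and Igfals in every library where they were listed; circles are replicate 1 and triangles replicate 2. Socs2 peaks at 106 and 118 CPM at 4 h, where Igfals is lowest at 31.7 and 41.8, and Ghr is lowest at 48 h at 215 and 177.

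Of 14 further male-biased liver genes 12 could be tested, all against the same sham pools as the 10 genes. Of the 12, 2 were lower at 2 h, 6 at 4 h and 7 at 24 h, then 12 at 48 h and 10 at 72 h. None was higher at these times by edgeR's quasi-likelihood test, nor at an unadjusted p under 0.05. The share of all genes lower was 16.3% at 4 h and 6.63% at 24 h, and for 48 h and 72 h it was 17% and 4.61%. The median change of the 12 was -0.84 at 4 h, -1.74 at 48 h and -1.04 at 168 h, where the median of all genes tested was 0.02, -0.05 and 0.0. At 4 h the falls with the smallest p were those of Cyp2u1 (-3.48 ± 0.47, adjusted p = 0.000132), Sdr9c7 (-3.09 ± 0.42, adjusted p = 0.000134), Gstp1 (-0.87 ± 0.16, adjusted p = 0.00126) and Keg1 (-1.95 ± 0.37, adjusted p = 0.00161). At 48 h they were those of Cyp2d9 (-1.35 ± 0.18, adjusted p = 0.000322), Ugt2b1 (-2.15 ± 0.35, adjusted p = 0.000972), Keg1 (-2.04 ± 0.37, adjusted p = 0.00197) and Moxd1. Cyp2d9, Cyp2u1 and Keg1 share exon bases with other gene models.

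Moxd1, which encodes a monooxygenase, was the 1 gene of that list called lower at 120 h and at 168 h, where 0.262% and 2.14% of all genes were. At an unadjusted p under 0.05, 9 of the 12 were lower at 120 h and 8 at 168 h, with 0 higher. The share of all genes at that unadjusted threshold was not counted. Moxd1 was at 27.0 and 7.64 CPM in sham, 1.84 in 0.5 h replicate 2 and 2.23 and 1.67 at 2 h. At 4 h it was back at 28.6 and 9.52 CPM, and at 24 h it was at 1.17 and 7.48, so its fall was not steady. From 48 h on it was at most 0.573 CPM. It had 0 and 1 reads at 168 h, and the ratio of sham to 168 h was 321. The exact binomial 95% interval of 57.1 to 12717 covers counting error only. The sham pools differ widely, and the ratio was 141 (24.5 to 5677) without sham replicate 1 and 500.0 (88.8 to 19831) without sham replicate 2. Among 24 female-biased genes, 3 were listed in sham replicate 2 and could be tested in the 17 libraries. Genes low in sham were left out, also where they were higher later. Cyp2a4 was 0.75 CPM in sham replicate 1 and reached 61.4, and Cyp2b9 was 0.125 and reached 28.8, both untested. Cyp2b10, which xenobiotics also induce, was higher at 2 h (2.49 ± 0.37, adjusted p = 0.0012) and at 4 h (3.58 ± 0.38, adjusted p = 2.6e-05), and Hamp2, a hepcidin whose exons overlap a gene model on the opposite strand, at 4 h (1.46 ± 0.42, adjusted p = 0.0196). Xist, the RNA of the inactive X chromosome, reached at most 0.484 CPM and was at 0 in 9 libraries, and the Y-linked Ddx3y was listed in all libraries, at 11.3 to 82.6 CPM.

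Clock genes were counted because several liver genes of this kind follow the time of day. Of 19, 15 were tested. At 4 h 8 were lower and 3 higher, where 16.3% and 15.3% of all genes were, among them Tef (-2.22 ± 0.18, adjusted p = 4e-06), Hlf (-1.38 ± 0.19, adjusted p = 0.000178) and Nfil3 (0.87 ± 0.18, adjusted p = 0.00263). At 24 h 2 were lower, where 6.63% of all genes were, and at 48 h 2 were lower and 1 higher, below the 17% and 14.2% of all genes. From 72 h on the test called none. At an unadjusted p under 0.05, 2 were lower at 72 h, 1 was lower and 1 higher at 120 h, and 7 were lower at 168 h. No share of all genes was counted at that threshold. Tef shares exon bases with a gene model on the opposite strand. Time of day and time after the operation cannot be told apart at 4 h, since the hour of the sham livers is not in the labels.

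The genes whose log2 CPM followed a member most closely over the 18 libraries were sought among 4804 other genes, as a description over libraries that share scaling and groups. For Hsd3b5 they were Ppp2r5a (Pearson r = 0.930), Xpc (0.909), Naa60 (0.886), Prosc (0.886) and Rbp4 (0.883). For Elovl3 they were Aox3 (0.931), Cyp2d9 (0.926), Rdh7 (0.919), Trp53inp2 (0.913) and Mug1 (0.909). Among the 10 genes, Elovl3 had r = 0.936 with Cyp4a12a, 0.897 with Serpina12 and 0.876 with Hsd3b5. For Bcl6 the highest values were 0.655 (Ggcx), 0.645 (Dnajb2), 0.643 (Tmem41b), 0.642 (Acsl3) and 0.641 (Pstpip2), and its r with the other 8 genes listed in all libraries lay between -0.12 and 0.25. Naa60, Prosc (Plpbp in GENCODE), Cyp2d9, Acsl3 and Pstpip2 share exon bases with other gene models.

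Per length, the 10 genes in sham ranked Nudt7, Selenbp2, Elovl3, Hsd3b5, Cyp4a12a, Cyp4a12b, Serpina12, Stat5b, Bcl6 and Stat5a. Selenbp2 was at 506 ± 131 RPKM (SD, n = 2), Elovl3 at 324 ± 83.6, Hsd3b5 at 146 ± 27.6 and Cyp4a12a at 131 ± 22.5. Cyp4a12b was at 44.2 ± 3.07 RPKM, Serpina12 at 13.1 ± 4.62, Stat5b at 11.8 ± 2.86, Bcl6 at 10.9 ± 3.49 and Stat5a at 2.97 ± 0.865. The order differed at later times. At 24 h Selenbp2 was at 24.4 ± 3.28 RPKM, below Cyp4a12b at 32.2 ± 9.67. At 4 h Hsd3b5 was at 7.68 ± 0.181 RPKM, between Cyp4a12b at 15.5 ± 8.43 and Stat5b at 5.09 ± 0.625.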

How the data were processed

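Poly(A) RNA of 18 pools was sequenced from random-primed fragments, per the labels' protocols, and the build was mm10, as the submitters' processing notes state. Aligner, counter and strand: not given in the sources used here. Per the file headers, a deposited table gives for each gene the count of its uniquely mapped reads, and the total of the library. RPKM values, as deposited, are those counts per gene length and total. Rows without a gene name held at most 0.0326% of a library's reads. The 10 genes and all lists were chosen with earlier results of these data known.

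The count test was that of edgeR 4.0.16 under R 4.3.3 (quasi-likelihood test, TMM, header totals as library sizes, 1 fit of all groups, Benjamini-Hochberg over all genes of the fit, threshold 0.05). A gene was kept if 2 or more libraries reached the CPM of 10 reads at median depth and all libraries summed to 15 reads. The SE is the log2 change divided by the root of F. Named genes were the 10, the 5 most like Hsd3b5, Elovl3 and Bcl6 (mean of at least 10 CPM, prior count of 2), and at most 4 per list and comparison, smallest p first. Alternatives were DESeq2 1.42.0, RLE factors, limma-trend (3.58.1) on log2(RPKM + 1) and log2(RPKM + 0.1), no filter, only the groups compared, a replicate block and leaving out each library. The limma-trend fits used RPKM scaled by library totals, without TMM. Gene positions and promoter windows came from RefSeq (GRCm38.p6), exons and transcripts from GENCODE M21.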

Additional observations from a re-analysis of the deposited data

How the results depend on the processing

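Of the 31 called changes of single genes, 31 kept their call and direction under DESeq2, RLE factors, no filter and the replicate block. Both limma-trend fits kept 28, losing Hsd3b5 at 24 h and Cyp4a12b and Stat5b at 48 h, and the fit of only the groups compared kept 30. Across the leave-one-out fits 511 values kept their call and 47 lost it; none changed direction. The number of called genes was 2 at 2 h with only the groups compared. At 120 h it was 1 with DESeq2, limma-trend on log2(RPKM + 1) and the replicate block. At 168 h it was 2 (Elovl3 and Serpina12) with DESeq2 and the replicate block, and 6 with only the groups compared. From 48 h to 168 h it was 5 with the replicate block and 6 with only the groups compared. Leaving out each library in turn gave 4 to 7 called genes at 4 h, 2 to 7 at 24 h, 6 to 8 at 48 h, 2 to 6 at 72 h, 0 to 1 at 120 h and 0 to 2 at 168 h. It gave 1 to 3 from 24 h to 168 h, 1 to 5 from 48 h to 168 h and 7 to 8 over the course. The cause of these shifts was not tested. Where a group was left with 1 library, its spread was taken from the other groups. With the replicate block Cyp4a12a also passed at 24 h (-1.23, adjusted p = 0.0487). Replicate numbers were not taken to pair pools: over 36 pairs of groups the correlation of the pool differences ran from -0.546 to 0.530, with a median of 0.0432. Taking Stat5a as 0 in 0.5 h replicate 1 gave no call. Depth limits Serpina12 most, at 24 reads in 1 pool, and 2 pools per group limit every comparison.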

Other observations

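Markers of other liver cells gave values that no comparison above uses. The summed level of 10 Kupffer cell and macrophage markers was 670 and 674 CPM in sham, 1147 and 1400 at 120 h and 1414 and 1730 at 168 h. At 168 h 7 of the 10 were called higher by edgeR's quasi-likelihood test, where 1.71% of all genes were, at the time when the hepatocyte markers were 163642 and 132436 CPM and 0 of 10 were called. The stellate cell and fibroblast list had 3 of 8 tested genes higher and 1 lower at 72 h, where 5.0% and 4.61% of all genes were, and 3 of 8 higher and 0 lower at 168 h, where 1.71% and 2.14% were. Col1a1, the main fibrous collagen, chosen after its values were seen, was 7.75 and 7.89 CPM in sham, 37.9 and 123 at 72 h and 30.4 and 26.0 at 168 h. Sinusoidal endothelial markers lay between 347 and 496 CPM in all libraries.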
